A study of Mus musculus with 8 samples.

Results

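The genes of fatty acid oxidation and of the peroxisome proliferator-activated receptors (PPARs) were a set of 39, taken by gene symbol and covering fatty acid entry, the mitochondrial and peroxisomal oxidation steps, electron transfer and the receptors. All 39 were among the 17847 genes of the table, and all 39 passed the filter on low values, as did 17801 genes in all. RNA had been sequenced in 4 wild-type and 4 Cox10-/- libraries from C57Bl/6 mice, made from muscle stem cells, which carry Pax7 and rebuild injured fibres. In the Cox10-/- mice a floxed Cox10 allele was removed by a tamoxifen-dependent Cre driven from Pax7, so deletion was directed to Pax7-expressing cells of adult animals. The labels give tamoxifen for the samples of both genotypes, as 1 intraperitoneal dose of 200 mg/kg, and collection 2 days later. Whether the wild-type animals carried the Cre or the floxed allele, the age of these adult animals in weeks or months, and whether each library came from its own animal are not in the labels. The p-values therefore measure the spread between these libraries. The sorted cells had surface CD34 and lacked Sca1, CD45, CD31 and staining by DAPI. Cox10 makes haem O, a precursor of the haem A that respiratory complex IV needs.

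Fatty acids enter the cell partly through CD36, are joined to coenzyme A by acyl-CoA synthetases, and pass into mitochondria as carnitine esters made by the CPT1 enzymes. There each turn of beta-oxidation removes an acetyl unit and gives electrons to the respiratory chain, through the electron transfer flavoprotein and through NADH, so the pathway depends on the chain that ends at complex IV. PPARs are nuclear receptors that bind fatty acids, pair with retinoid X receptors (RXRs) and raise transcription of many genes of fatty acid uptake, oxidation and storage. Quiescent muscle stem cells are known for their use of fatty acid oxidation.

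Values are log2 CPM (a share of the library total, on a log2 scale), and differences are Cox10-/- minus wild-type with the standard error (SE) of a limma fit over all genes, called at an adjusted p (Benjamini-Hochberg) under 0.05. Libraries held between 1693349 and 4652475 reads counted in genes. The log2 fold change of Cox10 itself was -0.62 ± 0.34, with a limma adjusted p of 0.246. By an exact permutation test of its values, two-sided, p was 0.2, and 4 libraries against 4 can give 0.0286 at the smallest. It was at 3.98, 3.42, 4.12 and 3.69 log2 CPM in wild-type replicates 1 to 4 and at 3.51, 3.69, 3.49 and 2.05 in Cox10-/- replicates 1 to 4, so the genotypes overlapped. The difference was -0.10 within replicates 1 and 2, -1.13 within replicates 3 and 4, and -0.24 without Cox10-/- replicate 4. Reads from exons outside the deleted part would count towards it, but their part in these values was not tested. All 14 markers of muscle stem cells were present and lay below 0 in their log2 fold change. Of these, 9 fell (64.3%, against 8.51% of all genes). Their summed level was 3147 to 3958 CPM in wild-type and 2128 to 2293 CPM in Cox10-/- for all 14. Of 19 capillary endothelial markers 18 were tested, 6 rose (33.3%, against 7.58% of all genes) and 12 were not called. Their summed level was 392 to 451 CPM in wild-type and 485 to 575 CPM in Cox10-/-. A large part of this sum came from Tek (6.97 to 7.40 log2 CPM in wild-type) and Cdh5 (6.49 to 6.75). Flt1 (2.63 to 4.22) and Esam (1.22 to 2.24), which are among the 6 rises, were far lower in wild-type. In bulk RNA, fewer cells of a type and less RNA per cell cannot be told apart.

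Most of the set did not pass the test, and the 6 members that did went both ways. The fatty acid carrier Cd36 and the mitochondrial enzymes Acaa2 and Echs1 rose, while the acyl-CoA synthetase Acsl5 and the reductases Decr1 and Decr2 fell. These were 3 of 39 (7.69%) in each direction, and across all genes tested 7.58% rose and 8.51% fell (16.1% in all), so both shares were near the background. The median log2 fold change of the 39 was 0.03, beside -0.06 for all 17801 genes. An unadjusted p under 0.05 was reached by 15 members, against 31.0% of all genes. The genotypes did not overlap in 9 of 39 members (23.1%), against 21.1% of all genes. The log2 fold change was under 0.3 in size in 22 members and 1 or more in only 2, Cd36 and Acsl5. The 95% interval lay within -0.5 and 0.5 in 14 members, so for the other members a change of that size was not excluded. The direction of the split depended on scaling: after median centring of the libraries, which moved the median of all genes from -0.06 to 0.03, 8 members rose and 2 fell. The added rises were Acsl1 (adjusted p = 0.0178), Acadm (0.0406), Eci2 (0.0367), Acox3 (0.00751) and Ehhadh (0.0452), and Decr1 was then no longer past the threshold (0.0981). Centring also moved the rises among all calls from 47.1% to 59.1%.

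**Figure D1:**
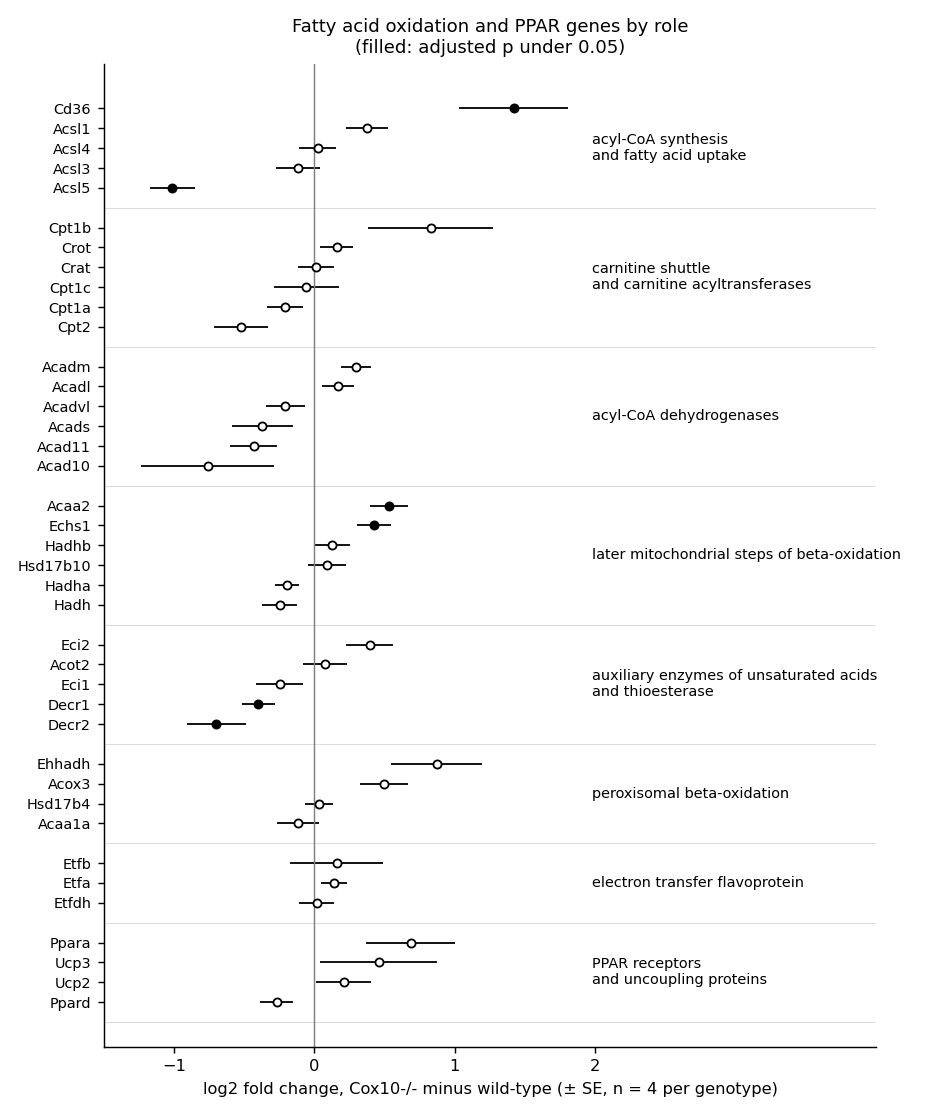
Log2 fold change of the 39 genes (x axis, Cox10-/- minus wild-type, bars are ± SE of the limma fit, n = 4 libraries per genotype), grouped by role, with filled points for an adjusted p under 0.05. The 6 filled points lie on both sides of 0, from -1.01 for Acsl5 to 1.42 for Cd36, and most open points lie within 0.5 of 0.

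PPARs with RXRs bind pairs of the half-site AGGTCA set 1 base apart (AGGTCANAGGTCA, 13 bases), and the promoters were read for this element because the receptors are part of the set. The 250 bases before the start site were taken from RefSeq (GRCm38.p6), searched on both strands with up to 2 mismatches in the half-sites. A promoter was found for 34 of the 39 genes. The element was in 4 of these 34 (11.8%), Cd36, Echs1, Etfa and Ucp3, and in 3.1% of 11044 tested genes with a promoter. No member held it with 1 mismatch or fewer, which 0.5% of tested genes did. Among PPAR targets outside the set it was in 3 of 15 with a promoter, of which Plin2 rose and Aqp7 and Creb3l3 were not called. The targets Acot1, Pdk4, Pnpla2, Slc27a1 and Vldlr also rose, and their promoters held no such element. The single half-site, which any such element with an exact arm contains, was in 20.6% of the members and 13.1% of tested genes. These are matches of letters, not measured binding, and enhancers and introns were not read.

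Of the called members, Cd36 (chr5:17835897-17836146, minus strand) and Echs1 (chr7:140116422-140116671, minus strand) rose and held the element, and Plin2 (chr4:86670060-86670309, minus strand) is shown with them as a target that rose. Capitals mark the element, which begins 63, 83 and 225 bases before the start site. In Cd36 and Plin2 it reads on the opposite strand. No promoter was found for Acaa2, which rose, or Decr1, which fell, so these called members were not read. Whether the element goes with the direction of change was not tested.
Cd36: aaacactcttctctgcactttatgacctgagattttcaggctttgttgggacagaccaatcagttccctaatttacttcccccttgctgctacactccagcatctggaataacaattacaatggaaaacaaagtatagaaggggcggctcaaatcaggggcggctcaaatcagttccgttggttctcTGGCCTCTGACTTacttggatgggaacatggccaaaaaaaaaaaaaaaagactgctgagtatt
Echs1: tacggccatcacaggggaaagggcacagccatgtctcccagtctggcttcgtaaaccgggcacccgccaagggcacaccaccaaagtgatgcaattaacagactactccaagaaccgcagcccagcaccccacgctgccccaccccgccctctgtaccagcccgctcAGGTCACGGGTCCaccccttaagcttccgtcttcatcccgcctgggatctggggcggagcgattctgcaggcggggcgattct
Plin2: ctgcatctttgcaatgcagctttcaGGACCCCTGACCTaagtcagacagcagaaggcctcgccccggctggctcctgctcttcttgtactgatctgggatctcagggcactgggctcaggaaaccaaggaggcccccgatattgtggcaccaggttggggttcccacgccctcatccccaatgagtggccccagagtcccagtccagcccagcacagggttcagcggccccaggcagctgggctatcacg
Acsl5 (chr19:55253119-55253368, plus strand) and Decr2 (chr17:26090165-26090414, minus strand) fell and held no element with up to 2 mismatches in this window, so they have no capitals.
Acsl5: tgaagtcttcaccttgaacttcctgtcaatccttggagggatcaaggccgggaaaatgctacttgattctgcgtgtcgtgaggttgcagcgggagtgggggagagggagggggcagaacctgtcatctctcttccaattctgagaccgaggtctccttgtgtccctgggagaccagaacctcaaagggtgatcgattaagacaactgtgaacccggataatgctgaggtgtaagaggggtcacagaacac
Decr2: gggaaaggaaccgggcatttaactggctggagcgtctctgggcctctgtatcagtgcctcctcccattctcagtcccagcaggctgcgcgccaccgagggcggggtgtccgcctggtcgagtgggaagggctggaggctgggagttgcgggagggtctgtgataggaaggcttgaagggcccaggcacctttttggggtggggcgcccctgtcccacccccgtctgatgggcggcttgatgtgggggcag

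The genes of fatty acid entry held the largest rise and the largest fall of the called members. Cd36, a membrane receptor that takes up long-chain fatty acids, was at 4.08, 1.90, 3.62 and 2.63 log2 CPM in wild-type replicates 1 to 4 and at 4.54, 4.27, 4.47 and 4.63 in Cox10-/- replicates 1 to 4. The Cox10-/- libraries lay close together and above every wild-type library, and the wild-type libraries were spread over more than 2 log2 units. Cd36 rose by 1.42 ± 0.39 (limma adjusted p = 0.0267), a 2.68-fold difference, by 1.42 within replicates 1 and 2 and by 1.43 within replicates 3 and 4. Leaving out 1 library ended the call in 4 of 8 fits: Cox10-/- replicate 1 (adjusted p = 0.0557), Cox10-/- replicate 3 (0.0655), Cox10-/- replicate 4 (0.0573) and wild-type replicate 4 (0.0649). Leaving out the 2 shallowest libraries together gave a log2 fold change of 0.98 (0.0648). Cd36 is also abundant in capillary endothelium, of whose 18 tested markers 6 rose and 16 lay above 0. The 6 rises were Pecam1, Cdh5, Flt1, Esam, Ly6c1 and Ly6a. Flt1 (1.705, limma adjusted p = 0.00283) and Esam (1.625, 0.00612) kept the call in all 8 fits without a library. Cdh5 (0.475, limma adjusted p = 0.0225) lost it in 4 of the 8 (up to 0.0659 without Cox10-/- replicate 2). The other 12 were not called. Among these, the endothelial receptors Kdr (0.15) and Tek (0.22) lay above 0, and Eng (-0.42) and Egfl7 (-0.14) below 0. Pecam1, which encodes the CD31 used to remove endothelial cells, was at 4.32, 2.70, 2.74 and 2.75 log2 CPM in wild-type and at 4.70, 4.76, 4.86 and 3.76 in Cox10-/-, and rose by 1.39 ± 0.37 (limma adjusted p = 0.024), a call lost in 6 of the 8 fits without a library (up to 0.0761 without Cox10-/- replicate 3). Wild-type replicate 1 had the highest wild-type value of both genes. Fabp4, a fatty acid carrier of endothelium and fat, was at 1.22 and 1.45 in wild-type replicates 2 and 4, where Cd36 was lowest too, and at 3.58 or above in the other 6 libraries. Whether endothelial RNA had a part in the rise of Cd36 was not tested.

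Acsl5, an acyl-CoA synthetase of mitochondrial and reticulum membranes, was at 5.16, 4.85, 5.10 and 5.20 log2 CPM in wild-type and at 4.35, 3.94, 3.98 and 3.99 in Cox10-/-. Every Cox10-/- library lay below every wild-type library. It fell by 1.01 ± 0.16 (limma adjusted p = 0.00118), to 0.496 of the wild-type level. This was the 1 member whose call was kept in all 8 fits that left out a library (adjusted p of up to 0.00692), and it was kept under every other setting as well. The other synthetases did not pass. Acsl1, the main synthetase of oxidative tissue, lay at 4.80 to 5.32 log2 CPM in wild-type and 5.35 to 5.77 in Cox10-/-, with a log2 fold change of 0.38 ± 0.15 (limma adjusted p = 0.108). The genotypes did not overlap in Acsl1, and it passed after median centring, as given above. Acsl3, which serves lipid droplet growth, and Acsl4, which prefers arachidonic acid, had log2 fold changes of -0.12 and 0.02.

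**Figure D2:**
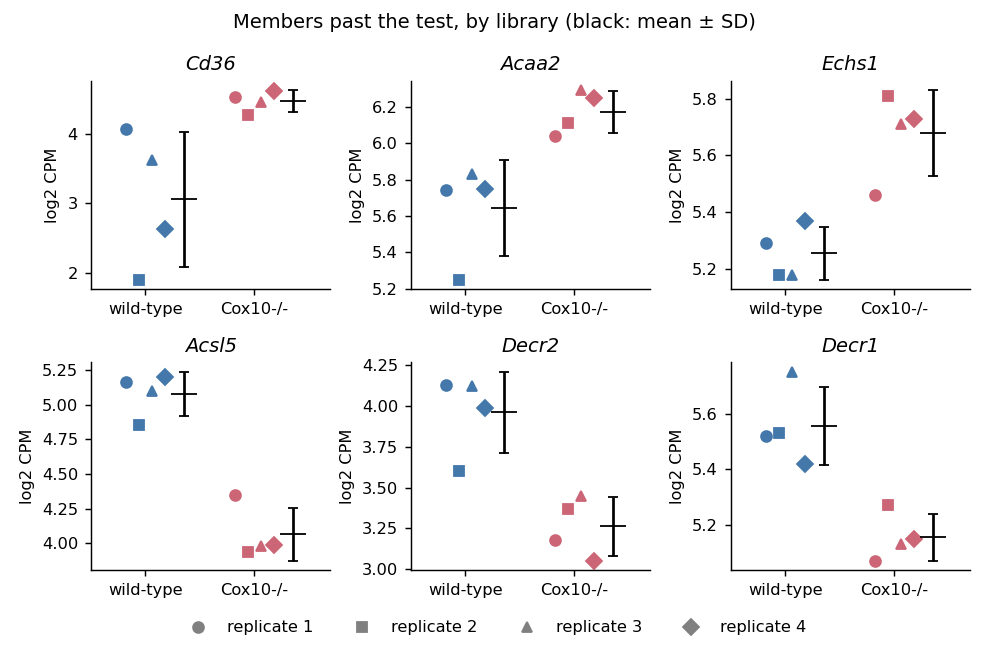
Log2 CPM (y axis, a separate scale in each panel) of the 6 called members in each library, with a symbol per replicate number, blue for wild-type and red for Cox10-/-, and the mean ± SD (n = 4) in black. The genotypes do not overlap in any panel, and the wild-type values of Cd36 spread from 1.90 to 4.08.

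The carnitine shuttle had no call among its 6 genes. Cpt1a, the form of carnitine palmitoyltransferase found in most tissues and the control point of entry into mitochondria, was at 7.93, 7.51, 8.14 and 7.71 log2 CPM in wild-type and 7.59, 7.45, 7.68 and 7.73 in Cox10-/-. These overlapped, with a log2 fold change of -0.21 ± 0.13 and a 95% interval of -0.49 to 0.07 (limma adjusted p = 0.287). Cpt1b, the muscle form, lay at the floor of the table: it was at 0.50, 0, 0.11 and 0 in wild-type and 2.28, 0.69, 0.95 and 0 in Cox10-/-. A value of 0 stands for a CPM of 1 or less. Its log2 fold change of 0.83 ± 0.45 (limma adjusted p = 0.232) is a difference from that floor and was 0.39 without Cox10-/- replicate 1. Cpt2, which returns the carnitine ester to coenzyme A inside the mitochondrion, was at 4.17, 4.51, 4.62 and 4.79 in wild-type and 3.96, 3.69, 4.29 and 4.05 in Cox10-/-. The values overlapped at 4.17 and 4.29 and the difference did not pass (-0.53 ± 0.19, limma adjusted p = 0.0847). It passed in a fit that also separated the libraries numbered 1 and 2 from those numbered 3 and 4 (adjusted p = 0.0405), but not with 2 means per genotype (0.34). Cpt1c, the neuronal form, and Crat and Crot, the acetyl- and octanoyltransferases, had log2 fold changes of -0.06, 0.01 and 0.16.

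Levels were compared between family members as CPM per kilobase of exon, since longer transcripts give more reads. The length was the union of all annotated exons of a gene, so orders between genes depend on it. Cpt1a was the most abundant CPT1 form, at 30.0 ± 5.66 CPM per kilobase in wild-type (SD, n = 4), beside 3.35 ± 0.79 for Cpt1c and at most 0.42 for Cpt1b. In Cox10-/- Cpt1a was at 25.7 ± 2.15, Cpt1c at 3.23 ± 0.73 and Cpt1b at most at 1.44, so the order was the same. Among the synthetases Acsl3 (22.5 ± 5.64) and Acsl4 (19.4 ± 3.19) were highest in wild-type and did not differ beyond their spread. Acsl5 (5.93 to 7.56) lay above Acsl1 (2.66 to 3.81) in wild-type, and in Cox10-/- the mean of Acsl5 (3.47, range 3.16 to 4.19) was below that of Acsl1 (4.46, range 3.89 to 5.21). Of the Cox10-/- libraries, replicate 1 alone had Acsl5 inside the range of Acsl1. The lengths were 10483 bases for Acsl1 and 4864 for Acsl5. Before division by length, their wild-type means were close, at 5.16 log2 CPM for Acsl1 and 5.08 for Acsl5. Over the whole set, the highest wild-type levels per kilobase were those of Acadl (49.5 ± 3.18), Etfa (40.2 ± 1.37), Acaa2 (33.3 ± 5.59) and Cpt1a. The ranges of Acadl and Etfa did not overlap, and those of Acaa2 and Cpt1a did.

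**Figure D3:**
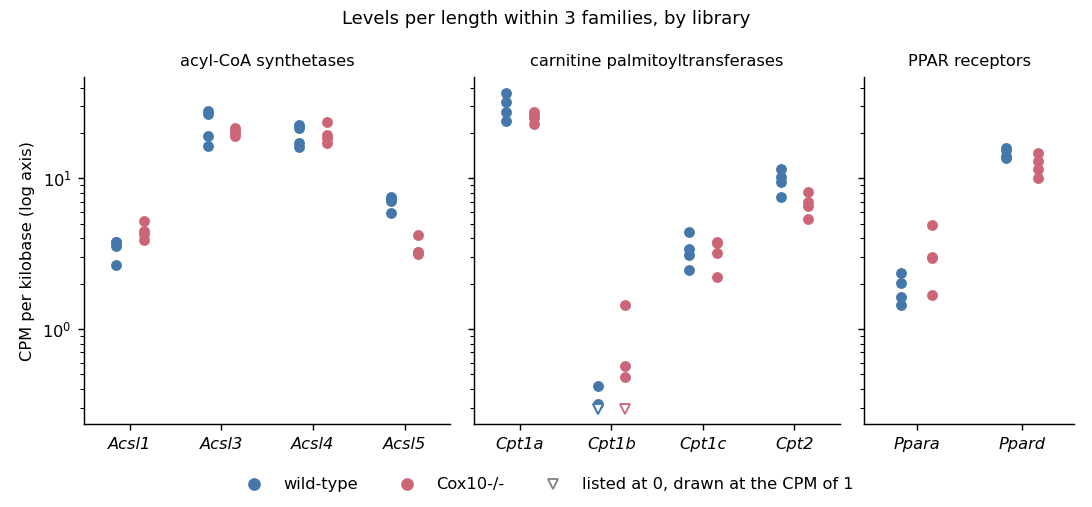
CPM per kilobase of exon (y axis, log scale) of acyl-CoA synthetases, carnitine palmitoyltransferases and PPAR receptors in each library, blue for wild-type and red for Cox10-/-, with open triangles at the floor for libraries listed at 0. Cpt1a and Ppard lie well above the other forms of their families in both genotypes, and Acsl5 lies above Acsl1 in wild-type but at 3.16 to 4.19 beside 3.89 to 5.21 for Acsl1 in Cox10-/-. The order of Acsl5 and Acsl1 depends on the exon lengths used.

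The acyl-CoA dehydrogenases, which open each turn of beta-oxidation on chains of different length, had no call among 6 genes. Acadm, for medium chains, was at 6.04, 6.13, 6.31 and 6.37 log2 CPM in wild-type and 6.46, 6.41, 6.59 and 6.57 in Cox10-/-. The genotypes did not overlap, and the log2 fold change was 0.30 ± 0.10 (limma adjusted p = 0.0746). Acadl (0.17), for long chains, Acadvl (-0.21), for very long chains, and Acads (-0.37), for short chains, overlapped between genotypes. Acad11, for longer and peroxisomal substrates, had a log2 fold change of -0.43 ± 0.17 (limma adjusted p = 0.0962). Acad10, a related gene of low level, was at 2.26, 2.90, 3.71 and 3.31 in wild-type and 3.10, 2.69, 2.53 and 0.82 in Cox10-/-. Its log2 fold change of -0.76 ± 0.47 (limma adjusted p = 0.301) was 0.32 within replicates 1 and 2 and -1.83 within replicates 3 and 4, the widest gap of the set.

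Of the 6 genes of the later mitochondrial steps, 2 rose (33.3%, beside 7.58% of all genes and 7.69% of the 39). No role was tested as a set. Acaa2, the thiolase that cuts off acetyl-CoA in the matrix, was at 5.74, 5.25, 5.83 and 5.75 log2 CPM in wild-type and 6.04, 6.11, 6.29 and 6.25 in Cox10-/-. It rose by 0.53 ± 0.14 (limma adjusted p = 0.0208), and the call was lost without Cox10-/- replicate 3 (0.0701). Echs1, the enoyl-CoA hydratase of short chains, was at 5.29, 5.18, 5.18 and 5.37 in wild-type and 5.46, 5.81, 5.71 and 5.73 in Cox10-/-, without overlap. It rose by 0.42 ± 0.12 (limma adjusted p = 0.031), a call that 6 of the 8 fits without a library lost (up to 0.0892 without Cox10-/- replicate 2) and that held in the fits lacking Cox10-/- replicate 1 or wild-type replicate 4. It was also lost without the 2 shallowest libraries (0.0743). The other 4 genes had log2 fold changes of -0.25 to 0.13: Hadh, the dehydrogenase of short chains, at the lower end, the trifunctional protein subunits Hadha (-0.20) and Hadhb (0.13), and Hsd17b10 (0.09). Hadha and Hadhb are transcribed away from each other from a shared region, and their RefSeq promoter windows of 250 bases had 228 bases in common. Hadha lay at 6.99 to 7.21 log2 CPM in wild-type and 6.87 to 7.02 in Cox10-/-, and Hadhb at 5.58 to 5.73 and 5.51 to 6.01.

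The auxiliary enzymes handle double bonds, and both dienoyl-CoA reductases fell. They were 2 of 5 genes grouped here with a thioesterase (40%, beside 8.51% of all genes and 7.69% of the 39). Decr2, the peroxisomal reductase, was at 4.13, 3.60, 4.12 and 3.99 log2 CPM in wild-type and 3.18, 3.37, 3.45 and 3.05 in Cox10-/-. It fell by 0.70 ± 0.21 (limma adjusted p = 0.0405). Decr1, the mitochondrial reductase, was at 5.52, 5.53, 5.75 and 5.42 in wild-type and 5.07, 5.27, 5.13 and 5.15 in Cox10-/-. It fell by 0.40 ± 0.12 (limma adjusted p = 0.0392). In both genes every Cox10-/- library was lower than every wild-type library, but both calls were near the threshold and each was lost in 7 of the 8 fits without a library. The largest adjusted p was 0.12 for Decr1, without wild-type replicate 3, and 0.118 for Decr2, without wild-type replicate 1; the call held only without wild-type replicate 4 for Decr1 and only without wild-type replicate 2 for Decr2. Without the 2 shallowest libraries the adjusted p of Decr1 was 0.0615. The enoyl-CoA isomerases Eci1 (-0.25) and Eci2 (0.39) and the matrix thioesterase Acot2 (0.08) did not pass.

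The peroxisomal members had no call among 4 genes. Ehhadh, the bifunctional enzyme of the peroxisome and a classic target of PPAR-alpha, was at 2.76, 1.48, 2.69 and 2.63 log2 CPM in wild-type and 3.28, 3.24, 2.89 and 3.63 in Cox10-/-. All Cox10-/- libraries were higher, and the log2 fold change was 0.87 ± 0.32 (limma adjusted p = 0.0882). Acox3, an oxidase of branched chains, was at 5.72, 5.18, 5.81 and 5.81 in wild-type and 6.34, 6.33, 6.07 and 5.75 in Cox10-/-. Cox10-/- replicate 4 lay inside the wild-type range, and the log2 fold change of 0.49 ± 0.17 (limma adjusted p = 0.0697) was 0.89 within replicates 1 and 2 and 0.10 within replicates 3 and 4. It passed without Cox10-/- replicate 4 (0.0279). Hsd17b4 (0.03), the second bifunctional enzyme, and the thiolase Acaa1a (-0.12) overlapped between genotypes. Outside the 39 genes, a list of other peroxisomal lipid genes had 2 rises (10%) and 1 fall (5%) of 20 tested, near the 7.58% and 8.51% of all genes. The transporter Abcd2 rose by 0.91 ± 0.23 and Amacr, a racemase of branched acids, fell by 0.96 ± 0.30, but of the 8 fits without a library 3 lost the call of Abcd2 (up to 0.06 without wild-type replicate 1) and 6 that of Amacr (up to 0.13 without wild-type replicate 3).

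The electron transfer flavoprotein and its oxidoreductase, which pass electrons from the dehydrogenases to ubiquinone, had no call. Etfa lay at 6.13 to 6.24 log2 CPM in wild-type and 6.23 to 6.40 in Cox10-/- (log2 fold change 0.14 ± 0.09, limma adjusted p = 0.326). Etfdh (0.02) and the weakly measured Etfb (0.16 ± 0.33) overlapped between genotypes. The intervals of Etfa (-0.06 to 0.34) and Etfdh (-0.26 to 0.29) were among those within 0.5 of 0.

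Differences were also taken separately within the libraries numbered 1 and 2 and within those numbered 3 and 4. The 39 genes had 15 members higher in both sets, 12 lower in both and 12 with opposite signs. All 6 called members kept their sign, which was bound to happen because their genotypes do not overlap. The median of the 39 was 0.13 within replicates 1 and 2 and -0.04 within replicates 3 and 4. With means of these sets as 2 samples per genotype, Acsl5 (limma adjusted p = 0.0357) and Cd36 (0.0203) remained called, and Acaa2 (0.141), Decr2 (0.251), Echs1 (0.252) and Decr1 (0.292) did not.

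**Figure D4:**
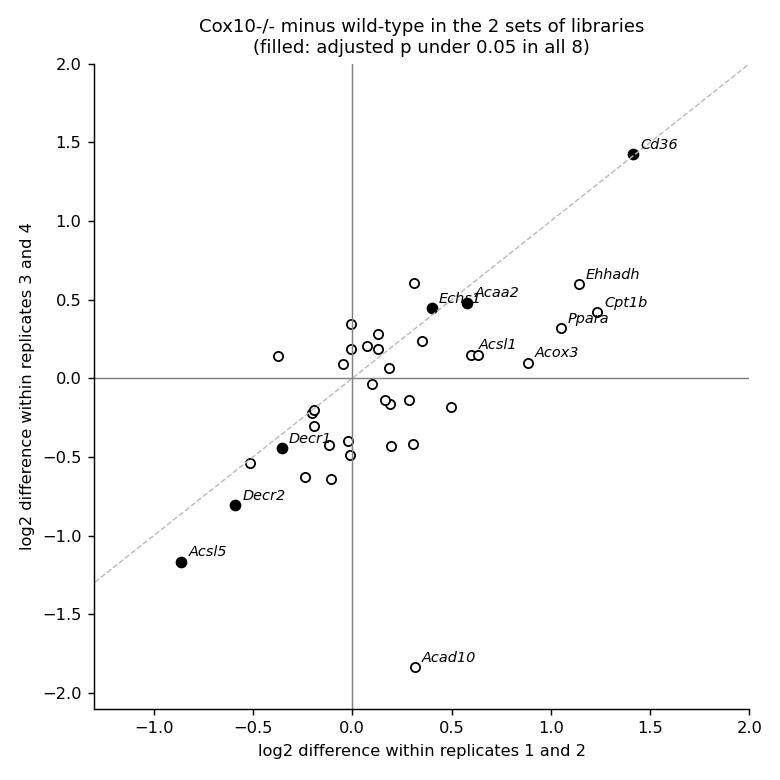
Log2 difference (Cox10-/- minus wild-type) of the 39 genes within replicates 1 and 2 (x axis) and within replicates 3 and 4 (y axis), with filled points for the 6 called members and a dashed line of equal values. The filled points lie in the quadrants of equal sign, as genes without overlap between the genotypes must. They run from Acsl5 at -0.86 and -1.17 to Cd36 at 1.42 and 1.43, and Acad10 lies at 0.32 and -1.83.

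Neither PPAR receptor of the set passed. Ppara, the receptor that drives oxidation in liver and heart, was at 3.17, 2.48, 2.64 and 2.95 log2 CPM in wild-type and 3.51, 4.24, 3.53 and 2.70 in Cox10-/-. Cox10-/- replicate 4 lay inside the wild-type range, and the log2 fold change was 0.69 ± 0.32 (limma adjusted p = 0.167), or 0.95 without that library (0.0413). Ppard, the receptor prominent in skeletal muscle, was at 6.73, 6.91, 6.85 and 6.69 in wild-type and 6.79, 6.62, 6.44 and 6.25 in Cox10-/- (-0.27 ± 0.12, limma adjusted p = 0.148). Per kilobase, Ppard (14.8 ± 1.05 in wild-type) was well above Ppara (1.86 ± 0.40). The uncoupling protein Ucp2, a carrier that responds to fatty acids, overlapped between genotypes (0.21 ± 0.20). Ucp3, its muscle relative, lay at 0 to 1.58 in wild-type and 0.46 to 1.82 in Cox10-/-.

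Of 24 partners and coregulators of PPARs outside the 39 genes, 5 rose (20.8%) and 4 fell (16.7%), beside 7.58% and 8.51% of all genes. Ppargc1a, the coactivator of oxidative metabolism, was at 5.37, 5.57, 5.09 and 4.92 log2 CPM in wild-type and 6.08, 6.24, 5.81 and 6.13 in Cox10-/-, and rose by 0.83 ± 0.15 (limma adjusted p = 0.00368). Ppargc1b, its close relative, was at 4.46, 4.39, 4.60 and 4.69 in wild-type and 4.20, 3.83, 3.41 and 2.82 in Cox10-/-, and fell by 0.97 ± 0.26 (limma adjusted p = 0.0266), a call lost in 4 of the 8 fits without a library (up to 0.0735 without Cox10-/- replicate 3). The related coactivators thus changed in opposite directions. Lpin1, a lipid phosphatase and PPAR coactivator, rose by 1.19 ± 0.11 and Klf15, a factor of fatty acid and amino acid use, by 1.18 ± 0.16. The orphan receptor Esrrg fell by 1.38 ± 0.35 and the receptor partner Rxrg by 1.11 ± 0.31, with Rxrg at 1.24 to 2.17 in wild-type and 0.46 to 0.82 in Cox10-/-. The call of Esrrg was lost without wild-type replicate 1 (0.0516), and that of Rxrg in 5 of the 8 fits without a library (up to 0.0923 without wild-type replicate 1) and with voom on recovered reads (0.138). Rxra (0.24) and Rxrb (-0.03) did not pass. The coactivators Ncoa3 (0.41) and Ep300 (0.25) rose. The call of Ep300 was lost after median centring (adjusted p = 0.116) and in 6 of the 8 fits without a library (up to 0.0976 without wild-type replicate 3). Ppargc1b, Rxrg and Ep300 were named after their values were seen.

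Of 21 known PPAR target genes tested outside the 39, 9 rose (42.9%) and 0 fell, beside 7.58% and 8.51% of all genes. Their median log2 fold change was 0.51 and 19 of 21 lay above 0. The list was composed with earlier results of these data known and has no test of its own. Pnpla2, the lipase that opens triglyceride breakdown, was at 6.48, 6.50, 6.68 and 6.44 log2 CPM in wild-type and 7.43, 7.62, 7.69 and 7.90 in Cox10-/-, and rose by 1.14 ± 0.11 (limma adjusted p = 4.0e-05). Acot1, a cytosolic thioesterase, was at 4.22, 3.94, 4.16 and 3.97 in wild-type and 5.27, 5.30, 5.09 and 5.12 in Cox10-/-, and rose by 1.12 ± 0.14 (3.1e-04). In both genes the gap between the genotypes exceeded the spread within either. Acot1 and the member Acot2 are close paralogs, and how the counting treated reads matching both is not given in the sources used here. Angptl4, a secreted inhibitor of lipoprotein lipase, rose by 0.97 ± 0.17 and Plin2, the coat protein of lipid droplets, by 0.83 ± 0.16. Pdk4 (0.60), the kinase that shuts off pyruvate oxidation, Vldlr (0.56), a lipoprotein receptor, and the fatty acid transporter Slc27a1 (0.54) rose too and were named after their values were seen. Of the 9 calls, that of Vldlr was lost in 4 of the 8 fits without a library (up to 0.0736 without wild-type replicate 1) and the other 8 were kept. With 2 means per genotype 5 of the 9 were kept.

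**Figure D5:**
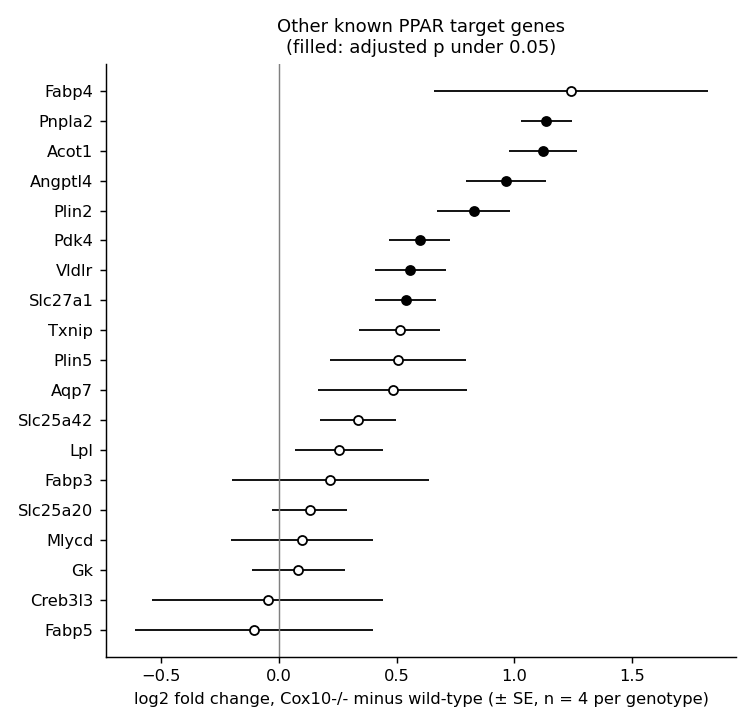
Log2 fold change (x axis, Cox10-/- minus wild-type, bars are ± SE of the limma fit, n = 4 per genotype) of 19 of the known PPAR target genes outside the set of 39, with filled points for an adjusted p under 0.05. The filled points lie between 0.54 for Slc27a1 and 1.14 for Pnpla2, and the open points of Fabp3, Fabp4, Fabp5 and Creb3l3 have wide bars.

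Several of these genes are also known targets of other regulators, such as Pdk4, Angptl4 and Pnpla2 of FoxO factors or the glucocorticoid receptor, and a PPAR receptor was not measured as a protein here. Targets with no call included Slc25a20, the carnitine carrier (0.13 ± 0.16), Mlycd, which removes malonyl-CoA (0.10 ± 0.30), and Lpl (0.26 ± 0.19). The adipocyte markers Adipoq, Plin1, Lep, Cidec, Retn, Cfd and Adig are not among the rows of the table, and 2 of 9 listed markers, Lipe and Pparg, were tested. Pparg lay at 0 to 0.59 log2 CPM in wild-type and at 0, 0.46 and 0.70 in 3 Cox10-/- libraries, and at 2.82 in Cox10-/- replicate 4. The summed level of the 21 targets was 1466 to 1641 CPM in wild-type and 2203, 2232, 2415 and 2716 CPM in Cox10-/- replicates 1 to 4. The 12 markers of fibro-adipogenic cells, the connective tissue progenitors of muscle, had 1 rise and 1 fall and summed to 4360 to 5786 CPM in wild-type and to 4574, 4560, 6559 and 9107 CPM in Cox10-/- replicates 1 to 4. Their receptor Pdgfra rose by 0.84 ± 0.19 (limma adjusted p = 0.00945). Dpt, a matrix protein gene, fell by 0.54 ± 0.13, a call lost in 1 of the 8 fits (0.0502 without Cox10-/- replicate 2). In Cox10-/- replicates 1 and 2 the fibro-adipogenic sum lay within the wild-type range and the target sum above it. The part of these cells in the target values was not tested in any library.

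The lipid droplet and lipolysis list, which shares Pnpla2, Plin2 and Plin5 with the target list, had 5 rises (27.8%) and 1 fall (5.56%) of 18 tested, beside 7.58% and 8.51% of all genes. Of the 5 rises, those of Pnpla2 and Plin2 are also counted among the targets. Plin4, a droplet coat protein, rose by 1.83 ± 0.18 (limma adjusted p = 4.5e-05), from 4.70, 4.83, 5.54 and 5.30 log2 CPM to 7.08, 7.09, 6.85 and 6.68. Dgat2, which makes triglyceride, rose by 0.65 ± 0.16, and the hormone-sensitive lipase Lipe by 0.50 ± 0.14, of which 3 and 6 of the 8 fits without a library lost the call (up to 0.0658 without Cox10-/- replicate 3 for Dgat2 and 0.097 without wild-type replicate 1 for Lipe). Mgll, which cuts the last fatty acid from glycerol, fell by 0.91 ± 0.17. Among 17 genes of malonyl-CoA control and of the energy sensor AMPK, 1 rose (5.88%) and 2 fell (11.8%), near the 7.58% and 8.51% of all genes. Mid1ip1 rose by 0.58 ± 0.14, and Thrsp, a relative of it linked to fat synthesis, fell by 1.25 ± 0.17. The AMPK subunit Prkab2 fell by 0.72 ± 0.18, a call lost without wild-type replicate 1 (0.0565) and Cox10-/- replicate 3 (0.0578). The acetyl-CoA carboxylases are in the same list and were not called.

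Of 25 other genes of beta-oxidation, carnitine and branched acids, 5 rose (20%) and 3 fell (12%), beside 7.58% and 8.51% of all genes. Auh, a hydratase of leucine breakdown, rose by 0.75 ± 0.11 and Ivd, a dehydrogenase of the same pathway, by 0.60 ± 0.13. Acss1, which activates acetate in mitochondria, was at 2.70, 2.80, 3.21 and 2.63 log2 CPM in wild-type and 4.52, 4.22, 4.09 and 3.33 in Cox10-/-, and rose by 1.21 ± 0.27 (limma adjusted p = 0.0113). Acot1 and the carnitine transporter Slc22a5 (0.47 ± 0.14) were the other rises. Acsl6, an acyl-CoA synthetase of brain, fell by 1.53 ± 0.30, from 2.70 to 3.12 log2 CPM in wild-type to 0.89 to 1.88 in Cox10-/-. Pcca (-0.52) and Hibch (-0.51), enzymes of propionate and valine breakdown, fell. Of the 8 fits without a library, 6 lost the call of Pcca (up to 0.129 without wild-type replicate 1), 8 that of Hibch (up to 0.0997 without wild-type replicate 4) and 7 that of Slc22a5 (up to 0.112 without Cox10-/- replicate 2). Hibch and Slc22a5 were named after their values were seen.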

How the data were processed

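RNA was measured in 8 libraries of sorted muscle stem cells, 4 per genotype. Trim Galore, HISAT2, featureCounts, DESeq2 and the build mm9 are named in the submitters' processing notes. Their versions, the strand setting and how multiply matching reads were counted are not given in these sources. As deposited by the authors, the values are log2 CPM rounded to 2 decimals, with every CPM of 1 or less at 0, as tested on the file. Rows without a gene (1054) and the authors' mean column were not used.

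The genotypes were contrasted in limma 3.58.1 (R 4.3.3) on these values with no added pseudocount, a model of genotype alone, a variance trend and Benjamini-Hochberg adjustment over 17801 genes above 0 in at least 4 libraries (46 removed). The fit was tested on simulated data. Where values had been counted as whole reads, low values gave the worth of 1 read: 100% of values up to 20 reads lay within 0.1 of a whole number in each library. These recovered reads served for depth and for voom, an alternative added after the data were seen. Other settings were a filter, pseudocounts, median centring, blocks and left-out libraries. By rule, members with values in every library are the 6 called and the 6 largest by size of change among the others. Cpt1a, Acadm and Ppard are given in the same way outside this rule. Called genes of other lists are named, up to 6 a list by smallest p. Some results for genes of the other lists are not reported here. The members and lists were chosen with earlier results of these data known. CPM per kilobase used exon unions of GENCODE M21 (GRCm38), not the authors' annotation. No coordinates were converted between builds.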

Additional observations from a re-analysis of the deposited data

Results flagged for a closer look

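In all, 148 groups of 4 libraries were looked at: the 39 genes, Cox10 and the called genes of the pathway lists, in each genotype. The test of Dixon takes the gap of a library to its nearest neighbour over the range of the group. Its 95% critical value is passed by chance in about 1 of 20 groups. In 7 of the 148 groups a library passed it. Wild-type replicate 2, the shallowest wild-type library, held 4 of them, all at the low end: Acads at 4.07 log2 CPM (others from 4.82), Acaa2 at 5.25 (others from 5.74), Acox3 at 5.18 (others from 5.72) and Ehhadh at 1.48 (others from 2.63). Without this library Acaa2 was still called. The others were Acsl5 at 4.35 in Cox10-/- replicate 1 (others up to 3.99), Cox10 at 2.05 in Cox10-/- replicate 4 (others from 3.49) and Plin2 at 6.14 in Cox10-/- replicate 3 (others up to 5.82).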

How the results depend on the processing

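The number of genes called was 2863 as reported, 858 with 2 means per genotype, 1810 to 2883 without 1 library, and between 2670 and 3838 under every other setting. Members called higher were 3 as reported, 8 after median centring, 1 with 2 means per genotype and 0 to 3 without 1 library (0 without Cox10-/- replicate 3). Members called lower were 3, then 1 with the replicate block, 1 with 2 means per genotype and 1 to 3 without 1 library. PPAR targets called higher were 9, then 5 with 2 means per genotype, and 8 to 10 without 1 library; none fell under any setting. The log2 fold change of Cox10 was -0.62, -0.10 within replicates 1 and 2 and -1.135 within replicates 3 and 4, and did not pass in any fit. Acad10 changed sign, to 0.315, within replicates 1 and 2; the cause was not tested. The filters, pseudocounts and voom on recovered reads kept all 6 member calls. Same-numbered libraries had correlations of 0.059 to 0.176 in their deviations from the genotype means, and the number was not taken to pair them; not every library correlated best with its own number. The replicate block gave 3201 calls in all and ended those of Decr1 (adjusted p = 0.0544) and Decr2 (0.0609). A count test by edgeR or DESeq2, planned as alternatives, was not run, because the deposited values are log2 CPM. At this depth Cpt1b, Ucp3, Pparg and Rxrg lie near the floor, and their fold changes are limited by it.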
